A study of Mus musculus with 18 samples.

Results

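The genes of the cytosolic ribosome were followed through 9 myeloid populations sorted from C57BL/6 mice, with 2 libraries of each and 18 in all. A gene was taken as a member when its symbol began with Rpl or Rps and a digit, or was Rplp0, Rplp1, Rplp2 or Rpsa. S6 kinase genes and names with a pseudogene ending were left out, and the row with the highest mean was kept. This gave 83 members among 16210 genes, of which 30 encode proteins of the small (40S) subunit, 45 proteins of the large (60S) subunit and 7 are paralogs that resemble another member. The remaining one, Rps19bp1, encodes a protein that binds Rps19 and is no part of the ribosome. The microglia came from brain, and the peritoneal macrophages from the peritoneal cavity. Red pulp macrophages came from spleen, Kupffer cells from liver and lung macrophages from lung. Small intestine macrophages came from ileum and large intestine macrophages from colon. Bone marrow gave the monocytes and the neutrophils. The labels give the same strain for every population and no treatment, age or genetic alteration. Each population was prepared in a single experiment. Experiment 1 held microglia, peritoneal macrophages and both intestinal populations, and experiment 2 held the other 5, so a difference across experiments and a difference between populations cannot be told apart. No label says that the 2 libraries of a population came from separate animals, so p-values measure only the spread between these libraries.

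Ribosomal proteins are made in nearly equal numbers, because each ribosome takes up a single copy of almost every one. In mammals their messenger RNAs start with a run of pyrimidines, the terminal oligopyrimidine (TOP) motif, through which mTOR signalling controls how well they are translated, and MYC raises transcription of many of them. Mature neutrophils are known for low protein synthesis, and monocytes still carry the machinery of recently dividing cells.

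Each macrophage label went with most or all of its own marker genes. All 6 microglial markers, all 4 markers each of peritoneal, spleen red pulp and Kupffer macrophages, and all 5 lung markers present in the table rose in their own population against the other macrophages. Of 4 intestinal markers, 4 rose in the small intestine and 3 in the large intestine, where 1 was not called. The 5 monocyte markers did not separate the bone marrow populations: they summed to 4218 and 4600 normalised reads in monocytes and to 4853 and 4616 in neutrophils. The 5 neutrophil markers did, with sums of 1673 and 1168 in monocytes and 211217 and 264916 in neutrophils. The libraries also held RNA of other cells. Neutrophil markers summed to 1106 to 2752 normalised reads in the spleen, lung and first Kupffer libraries, and to 9.31 to 18.6 in the gut libraries. Normalised reads are the values as the authors deposited them. Per library, 86.1% to 88.4% of the values above 0 came out as whole reads, within 0.01 read, when divided by 1 number, taken as the worth of 1 read. Globin and other erythroid genes summed to 43282 and 12959 in the neutrophil and to 35849 and 26167 in the spleen libraries, and to 24.4 to 19283 in the others. Reads assigned to genes numbered 587764 to 1580378 per library.

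The ribosomal protein genes together took up 1.59% to 9.83% of a library. Neutrophils had the lowest shares, 1.94% and 1.59%. Spleen red pulp macrophages gave 3.85% and 4.37%, and microglia 4.22% and 4.14%. The Kupffer libraries stood apart from each other at 6.09% and 3.08%. In the middle lay peritoneal macrophages with 7.19% and 6.35%, monocytes with 6.56% and 7.35%, and lung macrophages with 7.10% and 8.08%. Large intestine macrophages gave 9.48% and 8.66%, and small intestine macrophages 8.89% and 9.83%. Both neutrophil libraries thus lay below all others and the 4 gut libraries above all others. Spleen, microglia and Kupffer cells overlapped in share, as did peritoneal macrophages, monocytes and lung macrophages, and the gut populations overlapped with each other. In such bulk samples fewer cells of a type and less RNA per cell cannot be told apart.

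The share depends on what else fills the library. In neutrophils the 10 highest genes other than members held 22.2% and 25.1% of the library, against 6.78% to 11.8% in the other libraries, and Ngp, a granule protein gene, was the highest of all. Their deposited totals were also the largest. Summed as deposited, the members reached 29540 and 25078 normalised reads in neutrophils, and the second Kupffer library was lower still at 22932. The spleen sums were 32582 and 37528, and those of microglia 34875 and 35192. The gut sums were 75752 and 89336 in the small intestine and 87695 and 79606 in the large intestine, so gut libraries again lay above all others.

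**Figure D1:**
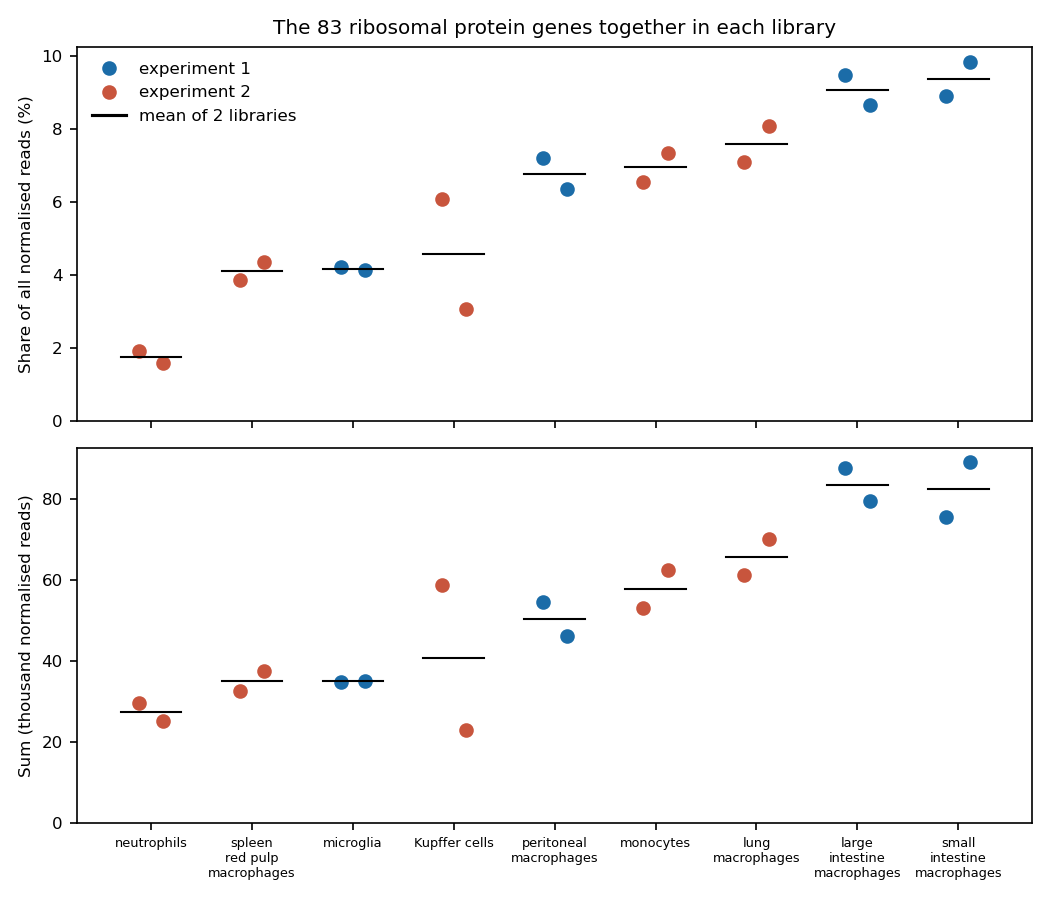
Share of all normalised reads (upper panel, percent) and sum of normalised reads (lower panel, in units given on the axis) of the 83 members in each library. Points are libraries, coloured by experiment, and bars are means of 2 libraries. Neutrophil shares are 1.94% and 1.59%, the gut libraries lie between 8.66% and 9.83%, and the Kupffer libraries differ by 1.98-fold in share.

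The values compare populations, not genes. Only 4.94% to 17.7% of the members' values above 0 in a library were a whole number of reads, within 0.01 read, against 81.0% to 85.0% for other genes with at least 50 reads, and 39 members held no whole value at all. How reads that match several of the many ribosomal pseudogene copies were shared out was not given in the sources used. Several core genes had low values. Rps15a, a small subunit protein, was above 0 in 2 libraries of 18 and at most 1.12 normalised reads. Rpl7a averaged 10.7, Rps2 30.7 and Rpl39 41.0, while the highest means included those of Rplp1 at 5176, Rpl41 at 2854 and Rps3 at 2355. Rps23 carries no symbol in the table and is outside the rule. Its identifier was matched through RefSeq, and it was also lowest in neutrophils, with a mean of 75.9 ± 4.77 normalised reads (SD, n = 2).

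A gene was tested when it had at least 5.53 normalised reads in at least 2 libraries, which left 12011 genes and 79 members. The 4 left out were Rps15a and the tissue-restricted paralogs Rpl3l, Rpl10l and Rpl39l. Rpl3l, the striated muscle form of Rpl3, averaged 0.217 normalised reads, Rpl10l, the testis form of Rpl10, averaged 0.322, and Rpl39l, also known from testis, averaged 1.77. The limit that a count of 0 allows was 1.69 to 6.59 normalised reads, depending on the library and covering counting error only. The tests used limma on log2(normalised reads + 1.11), and fold changes are on that scale, which understates those of low genes. "Rose" and "fell" are used for genes called at a Benjamini-Hochberg adjusted p under 0.05 and a log2 fold change of at least 1.

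Across the 9 populations 76 of 79 members were called with the F test, against a background of 66.7% of all genes. The median range of population means was 1.99 on the log2 scale for the members and 2.82 for all genes. With 4 times the pseudocount these were 1.88 and 1.98. Within experiment 1 they were 1.42 and 1.55, and within experiment 2 they were 1.43 and 2.12. The 3 members not called were Rpl7a, Rps25 and Rpl7l1. The small intestine held the highest mean for 44 members, the large intestine for 26, lung for 5, and monocytes and peritoneal macrophages for 2 each. Neutrophils held the lowest mean for 47, microglia for 11, spleen for 9, Kupffer cells for 8, peritoneal macrophages for 3 and monocytes for 1. Such counts were not made for all genes, so no background stands beside them. The median log2 level of all tested genes was also lowest in neutrophils, at 3.76 and 3.84 against 3.90 to 4.27 elsewhere. Within experiment 1 alone 62 members were called against a background of 35.0%, and within experiment 2 alone 60 against 51.0%.

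**Figure D2:**
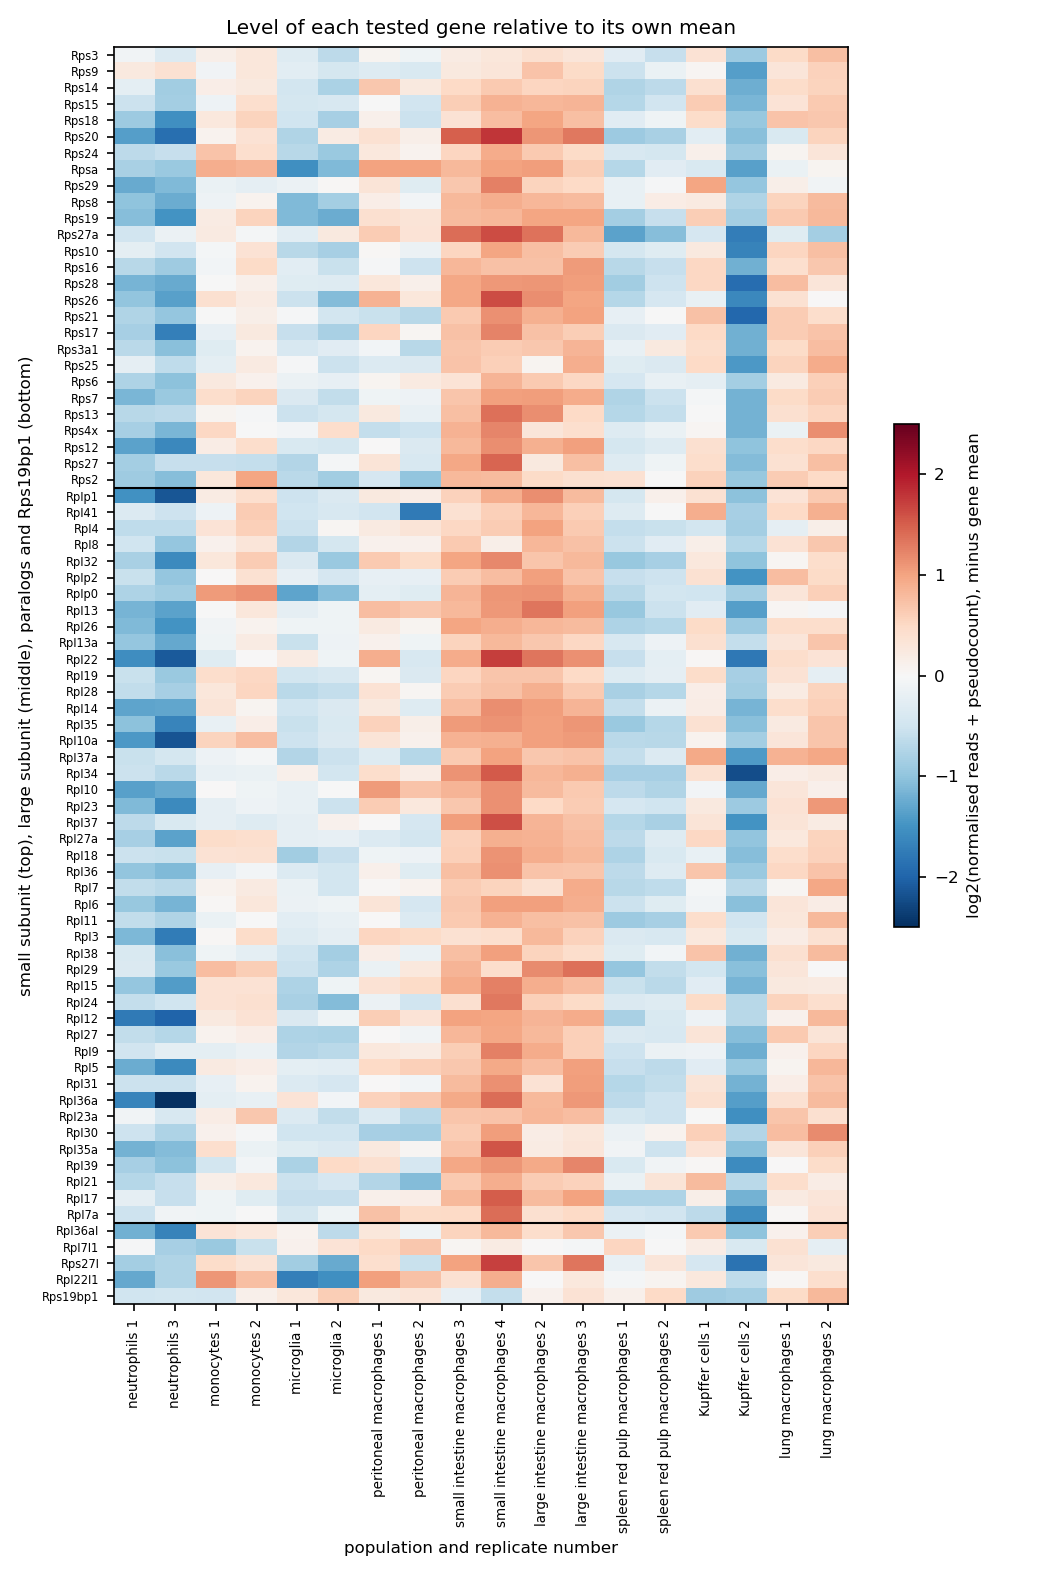
Level of 77 of the 79 tested members in each library as log2(normalised reads + pseudocount) minus the gene's mean over the 18 libraries. Rows are genes, by subunit, and columns are libraries by population. Neutrophil columns are mostly blue, the 4 gut columns mostly red, and the Kupffer columns differ, with 78 of 79 members higher in replicate 1.

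The members with the widest ranges were Rpl36a (3.34 on the log2 scale), Rps20 (3.28), Rpl22 (3.15), Rpl12 (2.88), Rpl10a (2.84) and Rplp1 (2.80). Rplp1 is a protein of the acidic stalk that recruits elongation factors, and Rpl12 sits at the base of that stalk. Rplp1 read 1581 and 1026 normalised reads in neutrophils, 5229 and 6050 in monocytes, 3137 and 3491 in microglia, and 5347 and 5117 in peritoneal macrophages. Spleen gave 3325 and 4896, Kupffer cells 5910 and 2222 and lung 5735 and 7073, and it read 6731 and 8422 in the small and 10039 and 7844 in the large intestine. The neutrophil libraries were below all others.

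The population means of a member correlated with the median of all members at a median Pearson r of 0.904 over the 9 populations, and 42 of 79 exceeded 0.9. The lowest was Rpl7l1 at 0.0436. These points share libraries and their scaling, so the correlation is a description. Among genes that are no members the closest to the members' median were Atp5g1 (r = 0.968), a subunit of ATP synthase, Gm12034 (0.961), Gm10136 (0.958), Ndufb5 (0.952), a subunit of respiratory complex I, and Mir682 (0.949), each over 9 population means.

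Monocytes against neutrophils gave the clearest contrast, with both populations from bone marrow and experiment 2. Here 41 of 79 members rose in monocytes and 0 fell, against backgrounds of 12.2% of all genes called higher and 11.3% called lower. The median log2 fold change of the members was 1.13, and that of all genes 0.00. For 72 members both monocyte libraries lay above both neutrophil libraries, against a background of 30.8%. Beside this, 2 of 5 monocyte markers rose and 0 fell, all 5 neutrophil markers and 1 of 7 erythroid genes fell, and their part in the members' difference was not tested. By subunit, 15 of 29 small subunit genes rose (median 1.11) and 24 of 45 large subunit genes (median 1.13). The count fell to 20 without neutrophil replicate 3 and to 26 without monocyte replicate 2.

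Rpl10a, whose protein forms the other, L1, stalk of the large subunit, read 211 and 127 normalised reads in neutrophils and 843 and 978 in monocytes. It rose by 2.46 ± 0.30 (SE; limma adjusted p = 7.4e-06). Rpl12 read 39.1 and 33.1 in neutrophils and 161 and 174 in monocytes, a rise of 2.18 ± 0.30 (limma adjusted p = 2.8e-05). The stalk genes Rplp1 and Rplp0 rose by 2.14 ± 0.37 and 1.93 ± 0.24, while Rplp2 was at 0.95 ± 0.39 and was not called. Rpl5, which carries the 5S RNA with Rpl11 and binds the p53 regulator Mdm2, rose by 1.61 ± 0.31, and Rpl11 itself was at 0.59 ± 0.29 without a call.

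The 7 macrophage populations against neutrophils gave 38 members higher and 0 lower, with backgrounds of 24.2% called higher and 16.0% called lower. For 16 members every macrophage library lay above both neutrophil libraries, against a background of 9.42%. The members' median was 0.90 and the median of all genes 0.34. All 7 erythroid genes fell and 8 of 12 immediate early and heat shock genes rose in the same comparison, and their part in the members' difference was not tested. Within experiment 2 the count was 25 with a background of 22.9%. The scaling bears on these values: with every library set to the same total the count became 77 of 80 tested members, while the median of all genes moved to 0.95 and that of the members to 1.75. With that scaling 82.2% of all called genes were higher in macrophages, against 60.3% as deposited. Monocytes against neutrophils moved likewise, to 74 of 80 members, a members' median of 2.02 and an all-gene median of 0.66, and higher genes went from 51.9% to 83.01% of all calls.

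Rpl36a, whose protein lies near the exit site for transfer RNA, read 27.9 and 13.04 normalised reads in neutrophils. Its macrophage libraries ran from 34.0 in Kupffer replicate 2 to 240 in small intestine replicate 4, all above neutrophils. It rose by 2.51 ± 0.34 (limma adjusted p = 7.3e-06), followed by Rpl12 at 2.11 ± 0.22 (limma adjusted p = 4.4e-07) and Rpl22 at 2.11 ± 0.35 (limma adjusted p = 8.3e-05). Its near copy Rpl36al rose by 1.60 ± 0.30. The split of reads between these copies is uncertain.

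Rps9, a small subunit protein near the entry of the messenger RNA, did not follow the others, and was singled out after its values were seen. It read 2560 and 2824 normalised reads in neutrophils, 2035 and 2650 in monocytes, 1820 and 1594 in microglia, and 1749 and 1679 in peritoneal macrophages. Spleen gave 1490 and 1932, Kupffer cells 2243 and 840 and lung 2698 and 3231, and it read 2579 and 2673 in the small and 3558 and 3025 in the large intestine. As deposited, neutrophils thus lay among the higher libraries for this gene, but their library totals were also the largest. Its share of the whole library was not compared. The difference of macrophages against neutrophils was -0.37 ± 0.26 (limma adjusted p = 0.25), and that of monocytes against neutrophils -0.21 ± 0.34 (limma adjusted p = 0.73). Rps9 made up 18.2% and 22.9% of the summed small subunit genes in neutrophils and 7.28% to 12.7% in the other 16 libraries. The ratio of summed small to large subunit genes was 0.922 and 0.979 in neutrophils and 0.636 to 0.773 elsewhere. Without Rps9 it was 0.754 in both neutrophil libraries and 0.561 to 0.694 elsewhere.

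Macrophages against monocytes gave a single called member, and the members' median was -0.08 beside 0.14 for all genes. Rplp0, the stalk protein that anchors the P1 and P2 pairs, fell by 1.15 ± 0.18 in macrophages (limma adjusted p = 0.00012), with backgrounds of 7.41% called lower and 10.3% called higher. It read 2077 and 2183 normalised reads in monocytes, 581 and 536 in neutrophils, 394 and 474 in microglia, and 829 and 795 in peritoneal macrophages. Spleen gave 610 and 713, Kupffer cells 699 and 544, and it read 1216 and 1493 in lung, 1791 and 2133 in the small and 2146 and 1832 in the large intestine. As deposited, monocytes and gut macrophages overlapped at the top, and microglia were below all other libraries. Neutrophils had the largest library totals, so the order of microglia and neutrophils depends on the scaling. Within experiment 2 the count was 4 called lower, with a background of 7.40%.

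**Figure D3:**
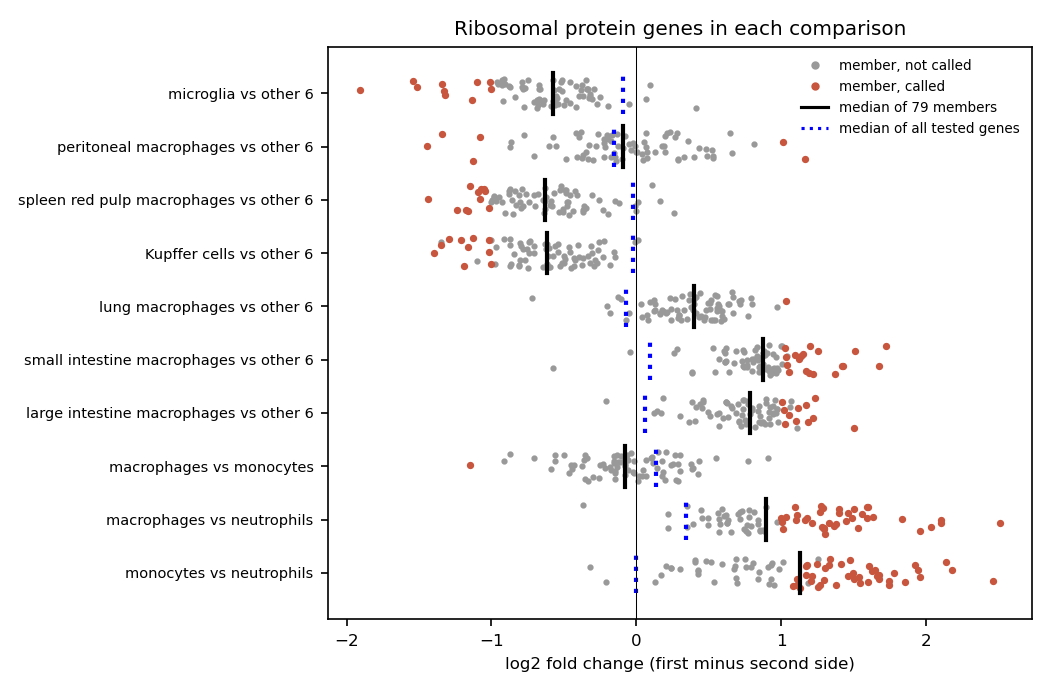
Log2 fold change of each tested member in the 10 comparisons (first side minus second side). Points are genes, red where called, the black bar is the median of the 79 members and the dotted bar that of all 12011 tested genes. The members' median is 1.13 for monocytes against neutrophils, 0.88 and 0.79 for the intestinal populations, and -0.58 to -0.63 for microglia, spleen and Kupffer cells.

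Intestinal macrophages had the highest levels among macrophages. In the small intestine 19 members rose and 0 fell against the mean of the other 6 macrophage populations, with backgrounds of 6.06% called higher and 1.65% called lower. The median was 0.88 for the members and 0.09 for all genes, and 77 of 79 members were above 0, against 55.8% of all genes. For 14 members both libraries lay above all 12 libraries of the other macrophages, against a background of 2.27%. The count was 10 without replicate 3, 3 without replicate 4 and 39 without Kupffer replicate 1. In the large intestine 11 rose and 0 fell, with backgrounds of 7.01% and 2.72%, and a members' median of 0.79. There 78 of 79 members were above 0, against 53.3% of all genes. For 7 members both libraries lay above all other macrophage libraries, against a background of 4.0%. That count of calls was 2 without replicate 2, 6 without replicate 3, 29 and 5 without Kupffer replicates 1 and 2, and 7 without lung replicate 1.

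Because each gut population counts in the reference of the other, both were also set against the 5 populations outside the gut, a comparison chosen after the data were seen. Then 40 members rose in the small intestine, with a background of 8.57% and a median of 1.03, and 33 in the large intestine, with a background of 9.56% and a median of 0.95. Within experiment 1, against microglia, peritoneal macrophages and the other gut population, 10 rose in the small intestine, with a background of 6.24%, and 2 in the large, with a background of 7.10%.

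Rps27a, which encodes a fusion of ubiquitin and a small subunit protein, read 1296 and 1527 normalised reads in the small and 1270 and 869 in the large intestine. Peritoneal macrophages gave 768 and 625, microglia 409 and 586, spleen 195 and 235, Kupffer cells 366 and 149 and lung 399 and 271. All 4 gut libraries were above those of the other macrophages. It rose by 1.72 ± 0.27 in the small intestine (limma adjusted p = 0.00031) and by 1.23 ± 0.27 in the large intestine (limma adjusted p = 0.0044). Within experiment 1 its values were 0.99 in the small and 0.43 in the large intestine, and neither was called.

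Rps20, a protein of the small subunit head, read 2005 and 2473 normalised reads in the small and 1534 and 1773 in the large intestine. The other macrophage libraries ran from 345 in Kupffer replicate 2 to 1056 in lung replicate 2, all below the gut. It rose by 1.68 ± 0.27 in the small intestine (limma adjusted p = 0.00041) and by 1.17 ± 0.27 in the large intestine. Rpl29, a large subunit protein, read 384 and 437 in the large intestine and 306 and 228 in the small, and rose by 1.502 ± 0.23 in the large intestine (limma adjusted p = 0.00016), where both libraries lay above all other macrophage libraries. Rplp0 rose by 1.22 ± 0.18 in the large and by 1.20 ± 0.18 in the small intestine.

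Gut libraries also held genes of other cells and of handling. The 4 epithelial markers, Epcam, Krt8, Krt18 and Cdh1, summed to 710 and 266 normalised reads in the small and 1063 and 1013 in the large intestine, and to at most 80.6 in the other 14 libraries. All 4 were above 0 in each gut library. The 4 plasma cell markers summed to 398 and 1133 in the small and 56.6 and 86.7 in the large intestine. Immediate early and heat shock genes summed to 5710 and 6950 in the small and 6577 and 3544 in the large intestine, 7 of 12 rising in the small intestine. Where the members were low, that sum was 4484 and 3841 in microglia, with 3 genes higher and 1 lower, and 1210 and 1607 in spleen, with 9 of 12 lower. The part of these genes in the members' difference was not tested.

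Lung macrophages had 1 of 79 members higher and 0 lower, both shares below the backgrounds of 8.28% and 10.0%, and a median of 0.40. The T and NK cell genes summed to 700 and 790 normalised reads in lung and to at most 97.8 in any other library, with 4 of 5 tested called higher in lung, as were all 5 neutrophil markers. Their part in the members' values was not tested. Rpl30, a large subunit protein, read 135 and 180 normalised reads in lung, 122 and 163 in the small intestine and 43.7 and 43.3 in peritoneal macrophages. It rose by 1.04 ± 0.28 in lung (limma adjusted p = 0.011). Against the spleen and Kupffer populations of its own experiment, 21 members rose in lung, with a background of 7.89% and a median of 0.91. The single call was lost without lung replicate 2 or Kupffer replicate 2, and the count was 2 without replicate 1 of either.

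Microglia, the macrophages of the brain, had 0 of 79 members higher and 10 lower, with backgrounds of 12.3% called higher and 15.3% called lower. Members were thus not called lower more often than all genes. Their median was -0.58 beside -0.09 for all genes. Against the other populations of experiment 1 the count was 37 lower, with a background of 15.1% and a median of -0.97. Without Kupffer replicate 2 it was 18. Rps19, a small subunit protein whose gene is mutated in human Diamond-Blackfan anaemia, read 244 and 221 normalised reads in microglia. The other macrophages ran from 290 in spleen replicate 1 and Kupffer replicate 2 to 1044 in large intestine replicate 2. For 5 of 79 members both microglia libraries were below all other macrophage libraries, near the background of 5.86%, and Rps19 was among them. It fell by 1.52 ± 0.26 (limma adjusted p = 0.00018).

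Rpsa, a small subunit protein also known as the laminin receptor precursor, separated microglia from peritoneal macrophages. It read 221 and 299 normalised reads in microglia and 1291 and 1287 in peritoneal macrophages. Spleen gave 395 and 528.5, Kupffer cells 498 and 249.4, and it read 577 and 679 in lung, 1130 and 1296 in the small and 1324 and 982 in the large intestine. Monocytes read 1205 and 1157 and neutrophils 365 and 337. Among the macrophages, peritoneal macrophages and the gut populations overlapped at the top, and microglia overlapped with Kupffer cells at the bottom. It fell by 1.54 ± 0.23 in microglia (limma adjusted p = 4e-05) and rose by 1.17 ± 0.23 in peritoneal macrophages (limma adjusted p = 0.00092).

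Peritoneal macrophages gave few calls, 2 of 79 members higher and 4 lower, with a median of -0.09. Both shares were below the backgrounds of 7.17% and 13.8%. Equal library totals turned the split to 4 higher and 2 lower, and 9 were called after quantile normalization, 6 of them higher. Only 3 calls were left without replicate 1 and 1 without replicate 2. Rpl41, the smallest ribosomal protein, read 1847 and 750 normalised reads in these 2 libraries and fell by 1.34 ± 0.34 (limma adjusted p = 0.0082). Its call rested on replicate 2, without which the difference was -0.69 (limma adjusted p = 0.29).

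Spleen red pulp macrophages had 11 members lower and 0 higher, with backgrounds of 7.44% called lower and 9.64% called higher, and a median of -0.63. Rps27a fell by 1.43 ± 0.27 (limma adjusted p = 0.00086), Rps20 by 1.24 ± 0.27 (limma adjusted p = 0.003) and Rpl35, a protein at the exit of the large subunit tunnel, by 1.18 ± 0.27 (limma adjusted p = 0.0047). Rpl35 read 306 and 355 normalised reads in spleen and 762 and 279 in Kupffer cells, so these overlapped, and 1190 to 1261 in the gut. Against Kupffer cells and lung alone 2 members were lower, with a background of 4.87%, and Rps27a was at -0.37 and not called. The count was 3 without replicate 1, 5 without replicate 2, and 5 and 19 without Kupffer replicates 1 and 2. All 7 erythroid genes, all 5 neutrophil markers, 3 of 4 plasma cell markers and 3 of 5 B cell markers were called higher here than in the other macrophages, and 9 of 12 immediate early and heat shock genes lower. Their part in the members' values was not tested.

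Kupffer cells, the macrophages of the liver, had 10 members lower and 0 higher, with backgrounds of 4.61% called lower and 6.36% called higher, and a median of -0.62. The libraries did not bear this out alike. Without replicate 1 the count was 56 lower with a median of -1.26, and without replicate 2 it was 0 with a median of 0.07. It was 6 without small intestine replicate 4. Of 79 members 78 were higher in replicate 1 than in replicate 2, by a median of 1.36 on the log2 scale, while 47.4% of all genes were higher in replicate 1. Rps27l read 30.0 and 10.4 normalised reads in the 2 libraries, Rpl22 651.5 and 184, and Rpl41 4818 and 1442. Within experiment 2 the count was 2, with a background of 4.56%. Rps27a fell by 1.29 ± 0.27 over all macrophages (limma adjusted p = 0.0032) and was at -0.18 within experiment 2, without a call.

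The Kupffer libraries also differed in RNA of other cells. The 5 hepatocyte genes summed to 2500 normalised reads in replicate 1 and 362 in replicate 2, and to at most 84.1 in any other library. Neutrophil markers summed to 1596 and 152, erythroid genes to 19283 and 9729, and immediate early and heat shock genes to 6208 and 2392. The 4 Kupffer markers themselves summed to 15008 and 9623. The part of these genes in the difference was not tested.

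To see which members moved apart from the rest, every library was shifted so that the members had the same median. Then 23 of 79 members were called across the 9 populations, with a background of 78.3%. The shift moves all other genes too. The members' median range was 0.93, and 45 of 79 had a range under 1. The largest ranges were those of Rps19bp1 (2.32), Rpl22l1 (2.16), Rps9 (2.03), Rpsa (1.97) and Rpl36a (1.93). In neutrophils Rps9 was 1.30 above the members' median, relative to its own mean over the populations, and Rpl36a 1.18 below it. In peritoneal macrophages Rpsa was 1.13 and Rpl22l1 1.01 above it, and Rpl41 was 0.99 below it (-0.99). Rplp0 was 0.92 above it in monocytes and at -0.71 in microglia.

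**Figure D4:**
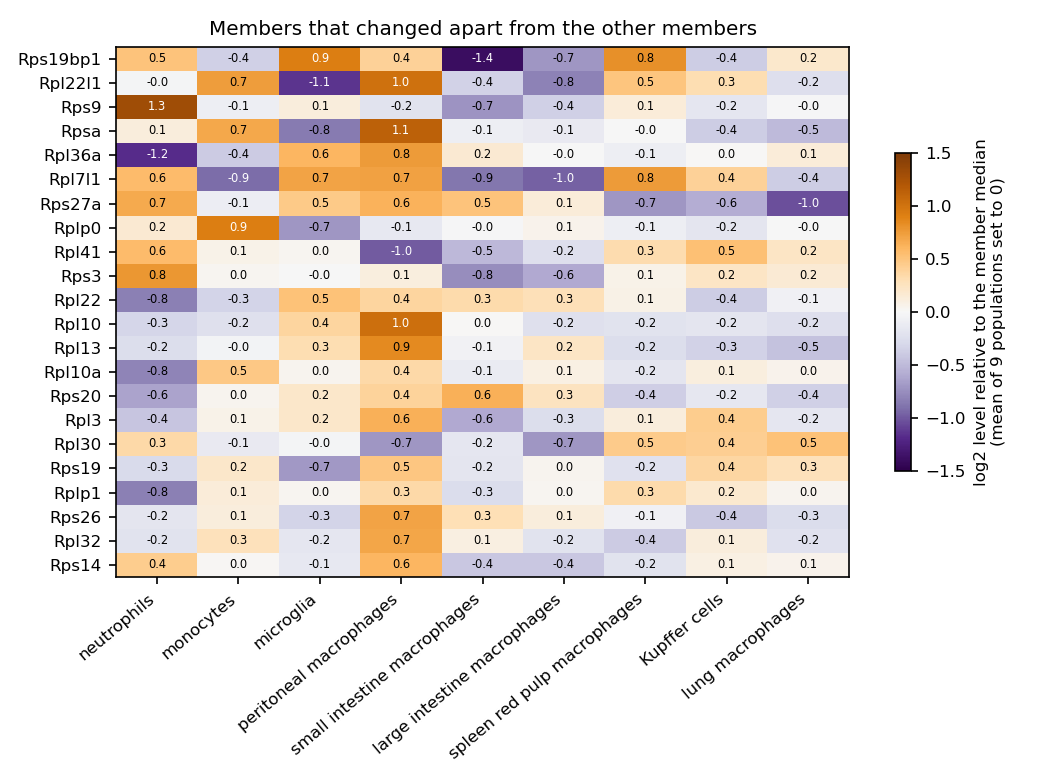
Of the 23 members called apart from the others, 22 are shown as log2 level relative to the members' median, with each gene's mean over the 9 populations set to 0. Rows are genes and columns populations. Rps9 stands at 1.30 in neutrophils, Rpsa at 1.13 in peritoneal macrophages and Rplp0 at 0.92 in monocytes.

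Of the 4 tested paralogs, Rpl22l1 and Rpl7l1 were called apart from the other members, and Rps27l and Rpl36al were not. Rpl22l1, a paralog of Rpl22 that can take its place in the ribosome, read 6.11 and 6.95 normalised reads in microglia, 8.50 and 12.8 in neutrophils and 49.0 and 38.5 in monocytes. Peritoneal macrophages gave 46.8 and 37.8, spleen 21.6 and 23.4 and Kupffer cells 27.2 and 14.0, and it read 22.9 and 30.1 in lung, 29.5 and 42.9 in the small and 22.4 and 27.1 in the large intestine. As deposited, microglia were below all other libraries. A read was worth 0.940 and 0.927 normalised reads in microglia and 1.38 and 2.20 in neutrophils, so few reads lie behind these values. The order of microglia and neutrophils also depends on the scaling. Against the other macrophages Rpl22l1 fell by 1.91 ± 0.36 in microglia (limma adjusted p = 0.00048). Its rise of 1.01 ± 0.36 in peritoneal macrophages (limma adjusted p = 0.047) was lost in 15 of 24 alternatives. As a share of Rpl22 it was 0.832% and 1.18% in microglia and 9.45% and 6.04% in monocytes, and its partner Rpl22 read 734 and 588 normalised reads in microglia and 519 and 637 in monocytes.

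Rps27l, a p53 target in human cells that resembles Rps27, read 82.4 and 135 normalised reads in the small intestine and 21.6 and 16.2 in microglia. It rose by 1.51 ± 0.36 in the small intestine (limma adjusted p = 0.011), where Rps27 rose by 1.20 ± 0.32. In microglia Rps27l fell by 1.32 ± 0.36, and Rps27 was at -0.68 ± 0.32 without a call. Its level as a percent of Rps27 was 91.8 and 85.9 in monocytes, above the 18.5 to 67.2 of all other libraries. Rpl7l1, a relative of Rpl7, was 40.1 and 51.8 in monocytes and 59.2 to 124 in macrophages, with a difference of macrophages against monocytes of 0.91 ± 0.26 that was not called. Rps19bp1 ran from 17.7 to 59.8 normalised reads as deposited over all libraries, neutrophils included, which read 23.4 and 24.2.

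**Figure D5:**
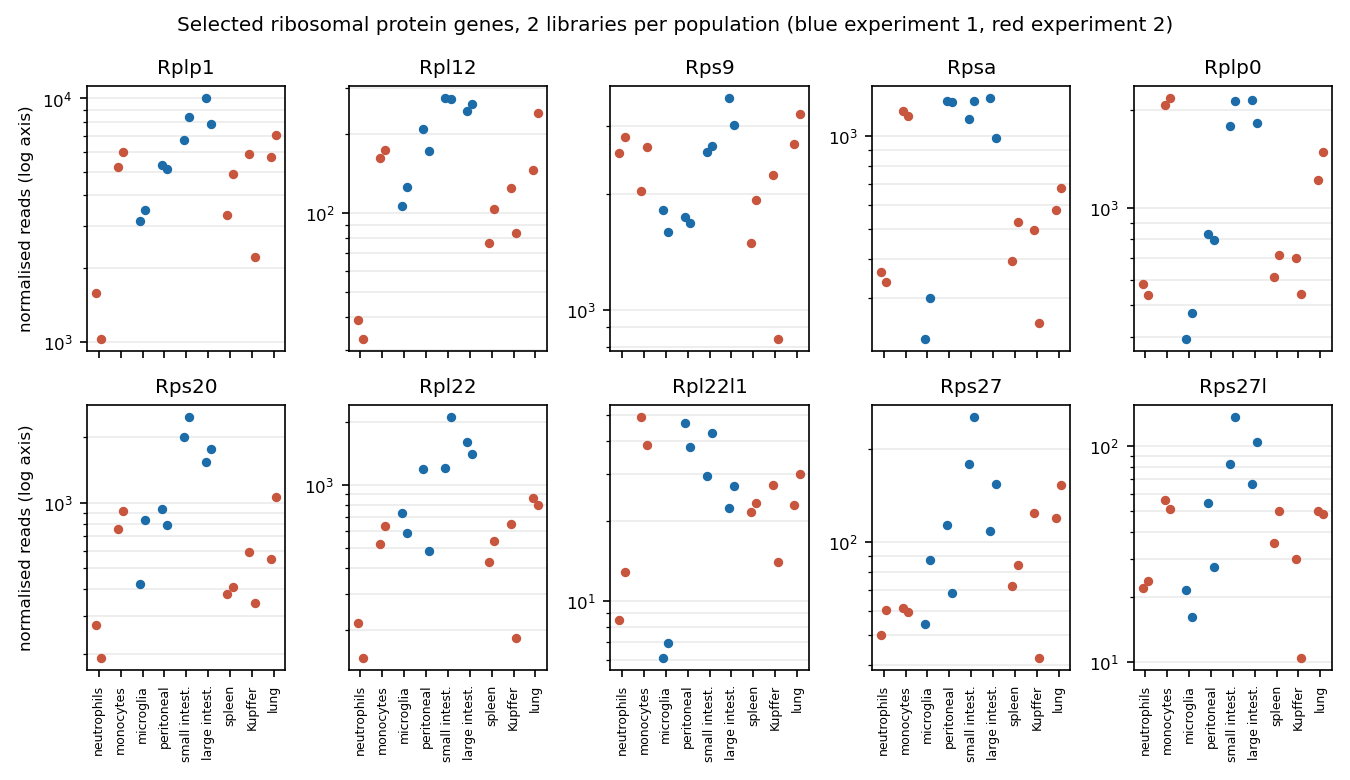
Normalised reads (log axis, own scale per panel) of 10 members in each library, in blue for experiment 1 and red for experiment 2. Values are as deposited, and neutrophils had the largest library totals. On this scale Rplp1, Rpl12, Rps20 and Rpl22 are lowest or among the lowest in neutrophils, and Rps9 is not. Rpl22l1 is lowest in microglia at 6.11 and 6.95, and Rplp0 is high in monocytes at 2077 and 2183.

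Other genes of the translation apparatus were followed as lists. Of the 3 ribosomal proteins with other names, Rack1 rose in monocytes against neutrophils by 1.61 ± 0.32 and fell in microglia by 1.13 ± 0.25. Of 5 elongation factor genes 4 rose in monocytes against neutrophils and 3 in macrophages against neutrophils, Eef1a1 by 1.63 ± 0.26 and 1.27 ± 0.20. Of all genes, 12.2% and 24.2% were called higher in these comparisons. Of 11 further TOP messenger RNAs 3 rose in the small intestine and 2 in the large intestine, with backgrounds of 6.06% and 7.01%. Tpt1 was among both, with 1.18 ± 0.21 and 1.08 ± 0.21. In spleen 5 of these 11 fell, Tpt1 by 1.42 ± 0.21, and 0 rose, with a background of 7.44% called lower. The list medians were 0.71 in the small and 0.78 in the large intestine, and -0.79 in spleen.

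Of 36 tested ribosome assembly factors, 25 rose in macrophages against neutrophils and 0 fell, with a median of 1.85, and 14 rose in monocytes against neutrophils with a median of 1.52. Fbl, the methyltransferase of ribosomal RNA, rose in monocytes by 2.86 ± 0.49. In both intestinal comparisons 0 of 36 passed limma's test (2 in the small and 7 in the large intestine had an unadjusted p under 0.05), and the medians were -0.25 in the small and -0.05 in the large intestine. Mitochondrial ribosomal protein genes rose in 24 of 78 cases and fell in 1 in macrophages against neutrophils, and 18 rose in monocytes against neutrophils. The backgrounds called higher are 24.2% and 12.2%. In the small intestine 1 of 78 rose and in the large intestine 2, with backgrounds of 6.06% and 7.01%.

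Of 22 MYC and mTORC1 regulators, 4 rose and 9 fell in macrophages against neutrophils, where 24.2% of all genes were called higher and 16.0% lower. Mxd1, which competes with MYC for its partner MAX, read 281 to 336 normalised reads in neutrophils and at most 19.8 in macrophages, and fell by 5.44 ± 0.74. Mlst8, a subunit of both mTOR complexes, fell by 5.08 ± 0.67, and Deptor, an inhibitor of mTOR, rose by 3.31 ± 0.39. Mycl rose by 2.42 ± 0.54 in the small and by 2.63 ± 0.54 in the large intestine. Cell cycle genes, at 1591 and 2259 summed normalised reads, were highest in monocytes, and 8 of 18 rose there against neutrophils. The part of any of these genes in the members' levels was not tested.

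The sequences before their starts were read from RefSeq promoters (GRCm38.p6, from 250 bases before to 50 after the start), which held 64 of the 83. This build is not the mm9 of the alignment and gives sequence only. CCGGAAG, the core bound by ETS factors, was searched on both strands and found in 26 of 64 members (40.6%) against 9.93% of 27025 genes. CTTTCC, a pyrimidine stretch, was likewise found in 35 of 64 (54.7%) against 29.3%. The motifs can overlap in their C bases. A match is a description and not a site. The stretches below run from 130 bases before to 20 after the start and show stalk genes, members called apart from the rest (Rps9, Rpl41 and Rpl22l1), Rpl35 and the pair Rps27 and Rps27l, chosen after their values were seen. Capitals mark either motif on either strand. For Rps27l the first of 2 listed starts was used.
Rpl35 (chr2:39005112-39005261, minus strand): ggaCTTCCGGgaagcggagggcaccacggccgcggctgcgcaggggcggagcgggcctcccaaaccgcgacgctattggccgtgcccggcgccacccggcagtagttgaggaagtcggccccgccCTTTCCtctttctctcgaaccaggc
Rpl41 (chr10:128549149-128549298, minus strand): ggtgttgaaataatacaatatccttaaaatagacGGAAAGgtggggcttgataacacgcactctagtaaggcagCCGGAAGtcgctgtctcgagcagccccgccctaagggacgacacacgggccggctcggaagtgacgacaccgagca
Rplp2 (chr7:141447521-141447670, plus strand): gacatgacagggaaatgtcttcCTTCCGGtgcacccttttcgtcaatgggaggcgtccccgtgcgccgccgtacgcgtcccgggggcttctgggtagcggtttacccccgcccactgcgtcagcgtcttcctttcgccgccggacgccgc
Rplp0 (chr5:115559337-115559486, plus strand): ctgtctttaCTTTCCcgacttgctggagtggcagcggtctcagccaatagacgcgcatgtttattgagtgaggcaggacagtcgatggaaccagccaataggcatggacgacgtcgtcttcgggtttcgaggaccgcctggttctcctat
Rpl12 (chr2:32961582-32961731, plus strand): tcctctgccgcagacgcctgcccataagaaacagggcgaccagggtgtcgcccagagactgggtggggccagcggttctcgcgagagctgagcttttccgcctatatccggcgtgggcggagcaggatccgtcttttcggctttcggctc
Rps9 (chr7:3703911-3704060, plus strand): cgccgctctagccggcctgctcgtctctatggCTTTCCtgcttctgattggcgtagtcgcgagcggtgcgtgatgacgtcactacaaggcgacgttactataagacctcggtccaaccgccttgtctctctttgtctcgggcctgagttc
Rps27 (chr3:90213629-90213778, minus strand): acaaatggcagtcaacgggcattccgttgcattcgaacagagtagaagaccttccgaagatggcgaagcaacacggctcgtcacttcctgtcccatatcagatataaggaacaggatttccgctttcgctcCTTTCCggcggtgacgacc
Rps27l (chr9:66945956-66946105, plus strand): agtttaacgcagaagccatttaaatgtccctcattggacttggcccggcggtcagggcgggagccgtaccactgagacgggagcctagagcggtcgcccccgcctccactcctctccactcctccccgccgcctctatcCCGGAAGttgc
Rpl22l1 (chr3:28805378-28805527, plus strand): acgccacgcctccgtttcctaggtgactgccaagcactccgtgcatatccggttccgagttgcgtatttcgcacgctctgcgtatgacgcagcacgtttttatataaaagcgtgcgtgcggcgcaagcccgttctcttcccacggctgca

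In the stretches shown, the ETS core stood in Rpl35, Rpl41, Rplp2 and Rps27l, and the pyrimidine stretch in Rpl35, Rpl41, Rplp0, Rps9 and Rps27. Neither is in this window of Rpl12 or Rpl22l1. Rpl41 and Rpl35, which hold both, fell in different populations: Rpl41 in peritoneal macrophages and Rpl35 in spleen. Rplp0 and Rplp2, both stalk genes, differ in which motif they hold.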

How the data were processed

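Per the labels' protocols, polyadenylated RNA from the sorted cells was copied with indexed primers, pooled and amplified by in vitro transcription. Reads were aligned with TopHat to mm9, per the submitters' processing notes. The sources used here do not give the counter, the annotation or the scaling. The authors deposited 1 table of signal values, called normalised reads here. Most are whole multiples of 1 step per library, as read counts divided by 1 factor would be, but most values of the members are not. It has 20814 rows, and 235 of them carry no symbol.

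The values were analysed as log2(value + 1.11), the pseudocount being the median column total divided by 1e6. Genes at 5 pseudocounts in at least 2 libraries were tested. A limma 3.58.1 model (R 4.3.3) with 9 populations over 18 libraries, empirical Bayes with a trend and Benjamini-Hochberg adjustment over all 12011 genes gave 11 comparisons, all two-sided. The model was also run on simulated data with changes placed in neutrophils only, and the outcome is not given here. Tables and plots used Python 3.11.15, numpy 2.4.6, pandas 2.3.3 and matplotlib 3.10.9. The precision of a value rests on 587764 to 1580378 reads per library.

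The rule's exclusion of names ending in PS and digits was read as the pseudogene ending, which removed 2 rows, since read literally it would take out Rps genes. Another 10 rows were S6 kinases. For 9 members with several rows the row with the highest mean was used. The named genes are the 4 members with the highest and the 4 with the lowest means, the 6 widest ranges, up to 3 called members per direction and comparison, the paralogs, the stalk genes, Rpsa, Rpl5 and Rpl11, up to 3 called genes of a list per comparison, and the 5 most alike genes. Some items are not reported here. Members and lists were chosen with earlier results of these data known. Alternatives were 4 times the pseudocount, no filter, equal totals, quantile normalization, equal member medians, a replicate block, fits within an experiment, leaving out each library and, added later, the reference outside the gut.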

Additional observations from a re-analysis of the deposited data

How the results depend on the processing

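With 2 libraries per population, members past the threshold depend on single libraries. Leaving out each library in turn gave 68 to 78 members among the 9 populations, 7 to 18 in microglia, 1 to 6 in peritoneal macrophages (without replicate 2 the 1 call was higher), 3 to 19 in spleen, 0 to 56 in Kupffer cells, 0 to 2 in lung, 3 to 39 in the small and 2 to 29 in the large intestine, 1 throughout against monocytes, 27 to 41 for macrophages and 20 to 44 for monocytes against neutrophils. A left-out library leaves a lone one that is assumed to vary like the other populations.

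Equal member medians by construction removes the shared movement: 23 members were called among the 9 populations, 1 in microglia, 5 in peritoneal macrophages (3 higher, 2 lower), 0 in spleen, 0 in Kupffer cells, 1 in lung (lower), 2 in the small intestine (lower), 1 in the large intestine (lower), 2 for macrophages and 4 for monocytes against neutrophils (1 higher, 3 lower). Equal totals gave 6 in peritoneal macrophages (4 higher), 5 in the large intestine, 77 for macrophages and 74 for monocytes against neutrophils. Quantile normalization gave 9 in peritoneal macrophages (6 higher), 2 in lung, 5 in the large intestine and 59 for macrophages against neutrophils. No filter gave 2 in lung. Fits within an experiment gave 37 in microglia, 2 in spleen, 2 in Kupffer cells, 21 in lung, 10 in the small and 2 in the large intestine, 4 against monocytes and 25 against neutrophils. The reference outside the gut, chosen after the data were seen, gave 40 in the small and 33 in the large intestine. The cause of these changes in count was not tested.

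Same-numbered libraries did not deviate together in the 4 populations examined, which were microglia, peritoneal macrophages, monocytes and spleen. The correlation over their 6 pairs was -0.01 to 0.01. Within an experiment it was 0.002 for microglia with peritoneal macrophages and 0.004 for monocytes with spleen. Pairs across experiments could hardly show pairing, and the other populations were not examined. A replicate block gave 0 members in the small intestine, where number 4 occurs alone, 17 in the large intestine and 60 among the 9 populations, and moved no other count by over 1.5 times. Of 28 gene calls named by size of change, 12 held in all alternatives other than equal member medians, and 0 changed direction there. Rpl3l, Rpl10l and Rpl39l, at or near the limit that a count of 0 allows, could not be compared at this depth. The core gene Rps15a could not be compared either. Whether its low values come from depth or from how reads were shared among copies was not tested.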
